A study of Mus musculus with 23 samples.

Results

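Meiotic recombination genes were followed through the first wave of mouse spermatogenesis, in the testis and in testicular explants in culture. The set holds 9 of the 27466 genes of the count table, chosen by name, for their role in recombination: Spo11, Prdm9, Dmc1, Meiob, Msh4, Msh5, Mlh3, Rnf212 and Ccnb1ip1. All 9 had reads in every library and passed the filter on low counts. In vivo, 8 of them passed as higher in edgeR at 22.5 than at 10.5 dpp (days post partum), the exception being Prdm9, where 33.6% of all genes tested were higher. After 4 days of culture 5 of them passed as higher than in the testis of the same age (4.92% of all genes), and after 16 days 4 as lower (11.8% of all genes). From 16 to 30 days of culture none passed, where 1.46% of all genes were higher and 0.332% lower.

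Poly(A) RNA of CD-1 mice, a wild-type outbred stock, was sequenced from whole testes at 4 ages, the youngest 6.5 dpp, and from explants of 6.5 dpp testes in culture. Culture for 4 days (D4) matches 10.5 dpp in age, for 16 days (D16) 22.5 dpp and for 30 days (D30) 36.5 dpp, which are the other 3 ages. Testes were fresh or, in 3 libraries at 6.5 dpp and 1 at D30, had gone through controlled slow freezing and thawing (CSF) before use. The culture medium was α-MEM with serum replacement and gentamicin, with retinol added at intervals, and there was no treatment or genotype other than these. After the rule left out 2 columns, 21 libraries remained, with between 28351546 and 69029328 counted reads each. The 6.5 dpp group held 1 fresh and 3 CSF libraries and the D30 group 3 fresh and 1 CSF, and there were 3 libraries each of 10.5 dpp, 22.5 dpp and D4 and 2 each of 36.5 dpp and D16. Each culture library pooled several explants after their necrotic centre had been cut away, so it holds the outer, living part of the tissue. The study's methods call the libraries biological replicates, while the labels do not say whether those of a group came from separate animals. The p-values measure the spread between these samples.

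Recombination begins when a meiotic cell cuts its own DNA. Prdm9, a histone methyltransferase with zinc fingers, marks where the breaks fall, and Spo11, a topoisomerase-like enzyme, makes them. The broken ends are trimmed, and Dmc1, the meiosis-specific strand exchange protein, together with Meiob, which binds single-stranded DNA, takes part in the search of the homologous chromosome and the repair from it. Msh4 and Msh5 form a dimer that holds the joined molecules, Rnf212 and Ccnb1ip1 (also called Hei10) encode RING proteins with opposed roles in choosing which joints become crossovers, and Mlh3, part of an endonuclease, resolves them in late pachytene. In the mouse testis the earliest of these steps take place in leptotene spermatocytes and the last in pachytene spermatocytes.

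Promoters of the set were read from RefSeq (GRCm38.p6), as the 250 bases before and 50 bases after an annotated start, to see whether genes of the same course share letters. Entries were found for 7 of the 9 genes, all but Spo11 and Meiob, with 2 entries each for Prdm9 and Mlh3. A gene was counted if any of its entries held a match, while the shares of all are per entry. Of 4 motifs searched on both strands, the element CNCCTCAG, bound by the meiotic inducers STRA8 and MEIOSIN, was present in 2 of the 7 genes, Prdm9 and Msh5, against 7.94% of all 32851 promoter entries. The E2F element GCGGGAA was present in 3, Msh5, Prdm9 and Rnf212, against 4.6% of all entries. The MYB element TAACNG was present in Msh4 and Ccnb1ip1, against 23.3% of all, and the cAMP response element TGACGTCA in none, against 1.79%. Shown here are the promoters of Prdm9 and Msh5, which hold the first element, that of Msh4, the partner of Msh5, which does not, and that of Dmc1, in which none of the 4 was found. Capitals mark the matches.
Prdm9 (second of 2 RefSeq starts, chr17:15564305-15564604, minus strand): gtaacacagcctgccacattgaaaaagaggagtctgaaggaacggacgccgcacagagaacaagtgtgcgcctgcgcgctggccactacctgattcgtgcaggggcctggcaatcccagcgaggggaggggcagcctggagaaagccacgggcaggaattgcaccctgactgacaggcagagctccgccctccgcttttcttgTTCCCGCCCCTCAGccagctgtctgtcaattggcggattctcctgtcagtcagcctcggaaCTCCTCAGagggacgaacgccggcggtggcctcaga
Msh5 (chr17:35046573-35046872, minus strand): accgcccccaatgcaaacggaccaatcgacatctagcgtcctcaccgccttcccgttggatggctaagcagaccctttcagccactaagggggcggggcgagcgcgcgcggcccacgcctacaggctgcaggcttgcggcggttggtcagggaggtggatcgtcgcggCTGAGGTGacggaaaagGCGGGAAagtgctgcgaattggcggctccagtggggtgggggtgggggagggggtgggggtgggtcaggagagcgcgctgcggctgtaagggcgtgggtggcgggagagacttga
Msh4 (chr3:153904842-153905141, minus strand): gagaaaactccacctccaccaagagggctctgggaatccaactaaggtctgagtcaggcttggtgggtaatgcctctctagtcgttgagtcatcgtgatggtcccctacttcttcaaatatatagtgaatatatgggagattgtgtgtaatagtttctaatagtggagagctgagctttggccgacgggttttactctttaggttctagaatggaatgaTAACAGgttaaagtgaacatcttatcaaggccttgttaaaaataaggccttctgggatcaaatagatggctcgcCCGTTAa
Dmc1 (chr15:79605060-79605359, minus strand): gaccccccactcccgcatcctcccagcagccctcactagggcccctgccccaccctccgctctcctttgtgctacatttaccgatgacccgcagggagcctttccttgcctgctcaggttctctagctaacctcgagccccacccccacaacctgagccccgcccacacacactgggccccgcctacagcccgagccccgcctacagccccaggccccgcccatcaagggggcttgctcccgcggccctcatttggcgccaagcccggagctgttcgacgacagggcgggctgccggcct
In Prdm9 the first capitals are an E2F element on the opposite strand that starts 47 bases before the annotated start, and share 1 base with a STRA8 and MEIOSIN element 41 bases before it, while a second such element begins at base 15 of the transcript. In Msh5 the STRA8 and MEIOSIN element lies on the opposite strand, 82 bases before the start, and the E2F element 65 bases before it. The Dmc1 window has a GC content of 69%, that of Msh4 43.3%, and the median of all entries is 52.7%. In all 4 the start used lies inside the outer bounds of the gene, and for Msh4 and Msh5 the whole window does. A match is a description of letters and not a bound site.

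The 9 genes lie on 7 chromosomes (GRCm38.p6), of which chromosome 17 holds 3, Prdm9 (Entrez 213389, 15543072 to 15564374), Meiob (75178, 24804301 to 24839788) and Msh5 (17687, 35028605 to 35046997). Spo11 (26972) lies on chromosome 2 from 172977379 to 172993576, Msh4 (55993) on chromosome 3 from 153857141 to 153906138, and Rnf212 (671564) on chromosome 5 from 108728105 to 108775067. Mlh3 (217716) lies on chromosome 12 from 85234466 to 85270647, Ccnb1ip1 (239083) on chromosome 14 from 50789249 to 50795728, and Dmc1 (13404) on chromosome 15 from 79561497 to 79605159. In the GENCODE annotation exons of Ccnb1ip1 share 233 of their 1883 bases with Rpph1 on the same strand, and those of Msh4 share 125 of 6895 with Gm24395 on the other. The levels of both genes are uncertain for this reason. The share of bases does not say how many reads are affected, which was not tested.

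All 21 libraries held germ cell and Sertoli cell transcripts, with Ddx4 and Dazl summing to between 586 and 1608 CPM (reads of the gene scaled to a common library total) and 4 Sertoli cell markers to between 59.8 and 1525 CPM, while Hba-a1, of red blood cells, had at most 3 reads in each D16 and D30 library. The library labelled 6.5 dpp fresh replicate 1, which the rule leaves out, had a Spearman correlation over genes of 0.985 with D16 replicate 1 and of 0.928 with the other fresh 6.5 dpp library, and held 95.0 CPM of Spo11 against 1.48 to 2.69 CPM in the rest of that age. The spread of a gene is estimated once over all groups, and with that library in the fit 13 of the 45 calls on the set over 11 comparisons passed, all 13 among the 45. Fresh replicate 3 at 6.5 dpp is identical to replicate 2. Among the libraries kept, 6.5 dpp CSF replicate 3 was high in Dmc1 and Ccnb1ip1 (31.1 and 34.1 CPM, against at most 14.0 and 15.0 CPM in the other 3), and D30 fresh replicate 3 was the lowest of its group in all 9 genes. Without CSF replicate 3 the set had 55 calls, 45 of them shared with the 45.

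Levels are given in CPM on the library total, while fold changes come from edgeR with TMM factors, and these scales differ most at 36.5 dpp. The median log2 fold change of all 19255 genes tested was -0.13 for 36.5 against 22.5 dpp with TMM, -0.63 with library size alone and 0.07 with RLE factors, and for D30 against 36.5 dpp it was -0.03, 0.60 and -0.29. Library size alone moved it from 0.06 to -0.23 for 22.5 against 10.5 dpp and from -0.08 to 0.07 for D16 against 22.5 dpp. The share of called genes that were higher moved with it, from 45.9% with TMM to 27.9% with library size alone and 56% with RLE for 36.5 against 22.5 dpp, from 54.3% to 68% and 43.9% for D16 against 22.5 dpp, and from 48% to 65.8% and 40% for D30 against 36.5 dpp. Library size alone thus lowered values at 36.5 dpp and raised those of culture against it. With library size alone the share moved from 59.1% to 69.2% for 10.5 against 6.5 dpp, from 54.6% to 43.8% for 22.5 against 10.5 dpp and from 60.7% to 50.1% for D4 against 10.5 dpp. The spermatid transcripts Acrv1, Tnp1, Prm1 and Prm2 summed to 13875 to 17388 CPM at 36.5 dpp and to 7.68 to 52.2 CPM at 22.5 dpp.

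Spo11 was lowest at 6.5 dpp and highest at 22.5 dpp. At 6.5 dpp it had 2.69 CPM in the fresh library and 1.77, 1.95 and 1.48 CPM in the CSF libraries, and at 10.5 dpp 3.79, 4.45 and 3.73 CPM. It had 123, 102 and 126 CPM at 22.5 dpp and 59.0 and 49.8 CPM at 36.5 dpp. In culture it had 10.5, 9.35 and 11 CPM at D4, 85.3 and 60.3 CPM at D16, and 84.4, 95.2 and 29.1 CPM (fresh) and 54.3 CPM (CSF) at D30. The 22.5 dpp libraries lay above all others, the D30 libraries overlapped with those of D16 and of 36.5 dpp, and D4 lay between these and 10.5 dpp with no overlap on either side.

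Prdm9 had another order, with its highest libraries at D4. It had 6.10 CPM in the fresh library at 6.5 dpp and 7.80, 4.50 and 4.80 CPM in the CSF libraries, then 20.7, 25.6 and 19.6 CPM at 10.5 dpp. At 22.5 dpp it had 19.8, 21.9 and 18.6 CPM, and at 36.5 dpp 2.82 and 3.73 CPM. The 10.5 and 22.5 dpp libraries overlapped, and those of 36.5 dpp lay below every other library. In culture it had 36.2, 34.1 and 36.0 CPM at D4, 10.6 and 17.8 CPM at D16, and 15.4, 13.8 and 11.7 CPM (fresh) and 13.8 CPM (CSF) at D30. All 3 D4 libraries lay above every other library, and the D30 libraries lay within the spread of the D16 pair.

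Dmc1 and Meiob, which act on the same single-stranded ends, differed in when they were high. Dmc1 had 12.4 CPM in the fresh library at 6.5 dpp, 14.0, 12.0 and 31.1 CPM in the CSF libraries, 32.4, 41.4 and 31.9 CPM at 10.5 dpp, 49.3, 62.3 and 45.2 CPM at 22.5 dpp, and 19.9 and 13.1 CPM at 36.5 dpp. In culture Dmc1 had 64.0, 61.0 and 69.6 CPM at D4, 35.9 and 29.7 CPM at D16, and 42.7, 44.3 and 22.4 CPM (fresh) and 42.6 CPM (CSF) at D30. The D4 libraries overlapped with those of 22.5 dpp, and the D16 libraries with those of 10.5 dpp. Meiob had 0.856 CPM in the fresh library at 6.5 dpp, 0.936, 0.997 and 2.72 CPM in the CSF libraries, 5.46, 7.34 and 4.36 CPM at 10.5 dpp, 72.5, 92.4 and 70.3 CPM at 22.5 dpp, and 33.3 and 24.6 CPM at 36.5 dpp. In culture Meiob had 31.6, 26.2 and 28.1 CPM at D4, 58.5 and 31.3 CPM at D16, and 50.7, 62.9 and 23.3 CPM (fresh) and 39.4 CPM (CSF) at D30. All 3 D4 libraries thus lay above all of 10.5 dpp, and 22.5 dpp lay above every other stage.

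Msh4 and Msh5, the partners of 1 dimer, were both highest at 22.5 dpp. Msh4 had 2.09 CPM in the fresh library at 6.5 dpp, 2.20, 2.77 and 2.50 CPM in the CSF libraries, 4.40, 4.45 and 3.53 CPM at 10.5 dpp, 29.2, 41.9 and 27.9 CPM at 22.5 dpp, and 18.9 and 18.9 CPM at 36.5 dpp. In culture it had 10.1, 8.30 and 8.47 CPM at D4, 19.7 and 16.8 CPM at D16, and 15.6, 16.7 and 9.12 CPM (fresh) and 12.5 CPM (CSF) at D30. Msh4 thus lay higher at D16 than at D4 without overlap. Msh5 had 5.34 CPM in the fresh library at 6.5 dpp, 5.57, 5.6 and 5.54 CPM in the CSF libraries, 11.5, 15.6 and 11.8 CPM at 10.5 dpp, 39.0, 44.5 and 41.1 CPM at 22.5 dpp, and 12.6 and 17.7 CPM at 36.5 dpp. In culture Msh5 had 22.8, 23.4 and 28.6 CPM at D4, 16.4 and 13.7 CPM at D16, and 21.1, 17.0 and 10.9 CPM (fresh) and 11.9 CPM (CSF) at D30. Msh5 therefore lay lower at D16 than at D4, again without overlap.

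Mlh3, Rnf212 and Ccnb1ip1 varied less. Mlh3 ran from 29.8 to 44.4 CPM at 6.5 dpp, 43.9 to 45.2 CPM at 10.5 dpp, 94.6 to 113 CPM at 22.5 dpp and 35.3 to 40.9 CPM at 36.5 dpp. In culture it had between 32.6 and 39.2 CPM at D4, 72.9 and 75.6 CPM at D16, and between 45.3 and 68.0 CPM at D30. Its 22.5 dpp libraries lay above all others. Rnf212 ran from 4.10 to 5.41 CPM at 6.5 dpp, 5.57 to 6.28 CPM at 10.5 dpp, 11.4 to 13.2 CPM at 22.5 dpp and 6.65 to 8.10 CPM at 36.5 dpp, and over the 9 culture libraries from 3.35 to 8.11 CPM, with overlap between all culture days. Ccnb1ip1 ran from 21.5 to 27.9 CPM at 22.5 dpp and from 7.10 to 34.1 CPM over all libraries, and each stage overlapped with its neighbour in the order of levels.

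**Figure D1:**
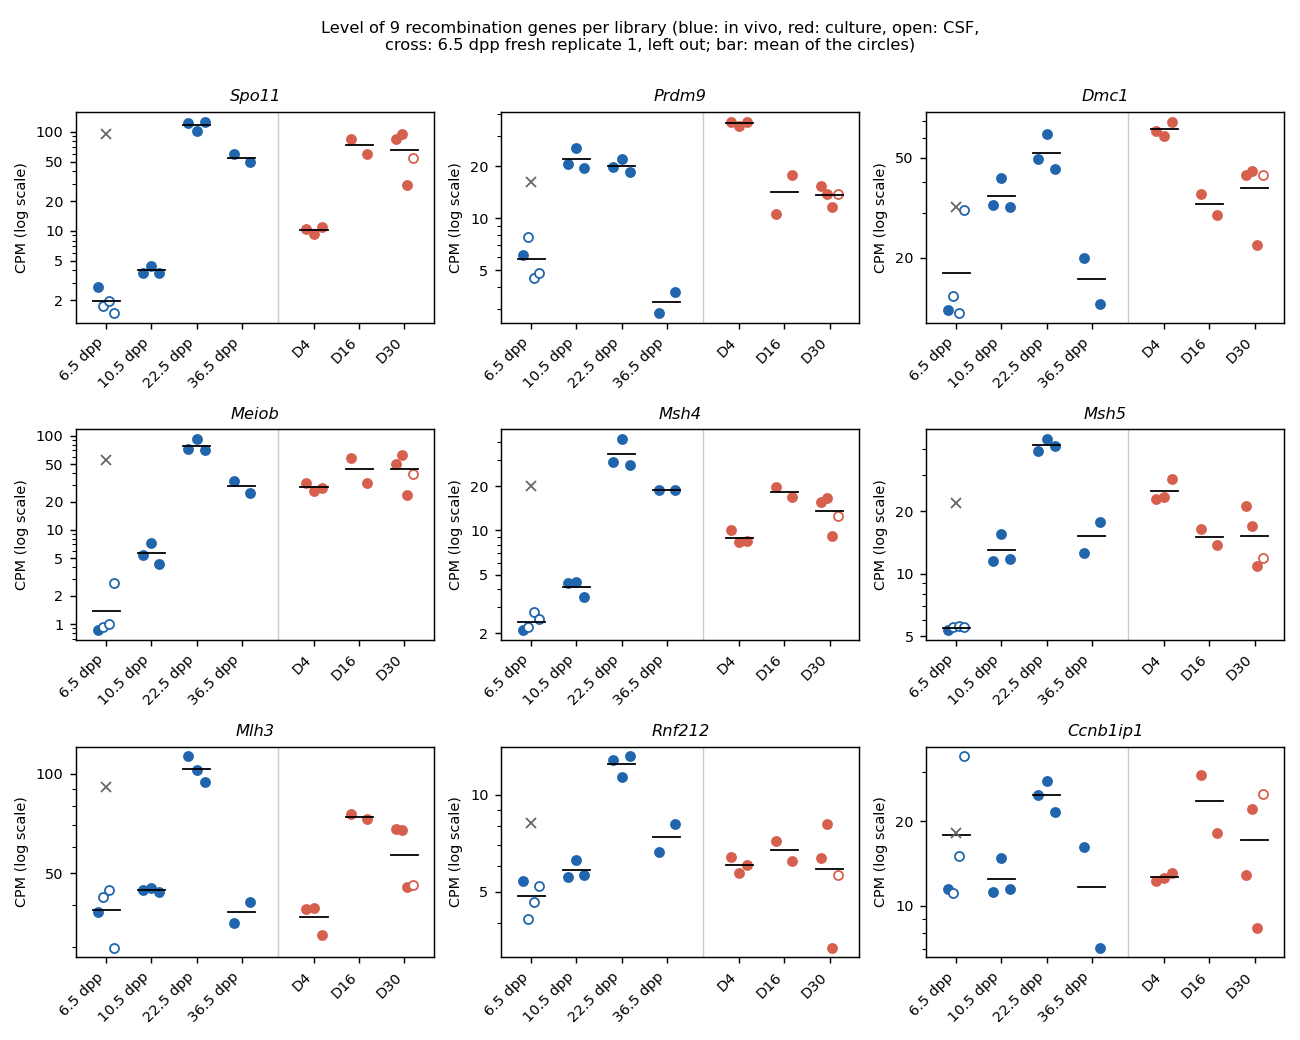
Level of each of the 9 genes in CPM on a log axis for every library, by age in vivo (blue) and day of culture (red), with CSF libraries as open circles, bars at the mean and the 6.5 dpp library that was left out as a cross. The D4 libraries of Prdm9 lie between 34.1 and 36.2 CPM, above all others, and the Spo11 libraries at 22.5 dpp between 102 and 126 CPM.

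Set against exon length, so that genes can be compared with each other, the order of the set changed between stages. At D4 the highest level was that of Dmc1, with 26.6 CPM per kb (range 25.0 to 28.6), followed by Meiob with 15.9 and Prdm9 with 8.23 CPM per kb, and Msh4 was the lowest with 1.30 CPM per kb. At 22.5 dpp Meiob led with 43.5 CPM per kb (range 39.1 to 51.3), followed by Spo11 with 29.8 and Dmc1 with 21.5 CPM per kb, while Prdm9 was the lowest with 4.66 CPM per kb and overlapped with Msh4 at 4.78. D16 had the same leading genes as 22.5 dpp, Meiob (24.9 CPM per kb) and Spo11 (18.6 CPM per kb), whose libraries overlapped.

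Ratios within a library do not depend on the scaling between libraries. Prdm9 exceeded Spo11 per kb before 22.5 dpp, with ratios of 4.78 to 5.24 in the 10.5 dpp libraries and 2.98 to 3.32 at D4, and lay under it afterwards, with 0.134 to 0.196 at 22.5 dpp, 0.113 to 0.268 at D16, 0.0436 to 0.0682 at 36.5 dpp and 0.132 to 0.367 at D30. The D4 ratios were thus lower than those at 10.5 dpp without overlap, those of D16 enclosed those of 22.5 dpp, and those of D30 were above those at 36.5 dpp. Dmc1 to Meiob was 4.17 to 5.41 at 10.5 dpp and 1.5 to 1.83 at D4, against 0.476 to 0.503 at 22.5 dpp and 0.454 to 0.701 at D16. For Msh4 to Msh5 the 10.5 dpp libraries (0.229 to 0.307) and D4 libraries (0.238 to 0.353) overlapped, and the values were 0.544 to 0.755 at 22.5 dpp and 0.960 and 0.979 at D16, so that within the dimer the D16 libraries had more Msh4 for each Msh5 than those of 22.5 dpp. These ratios were not tested.

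**Figure D2:**
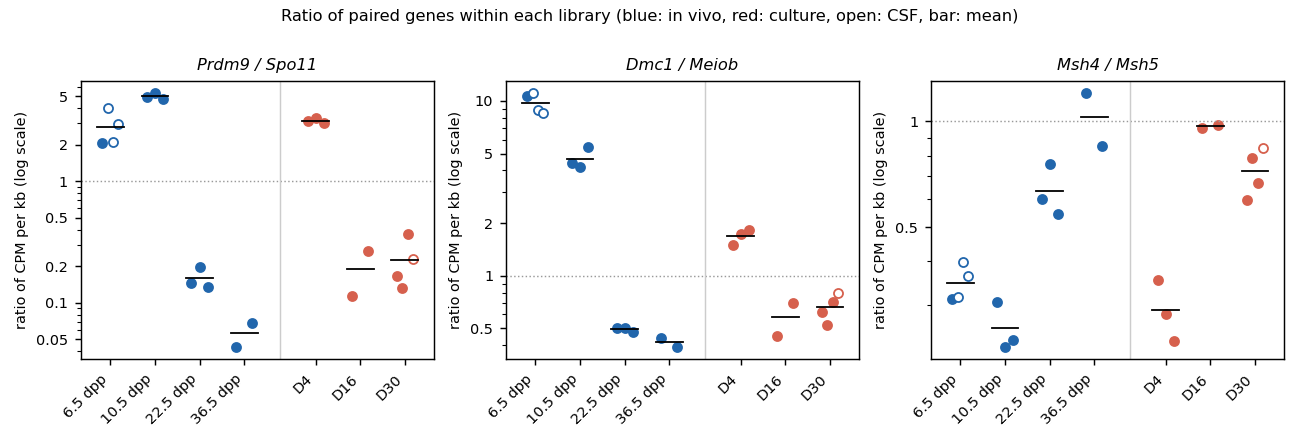
Ratio of the CPM per kb of exon of Prdm9 to Spo11, Dmc1 to Meiob and Msh4 to Msh5 within each library, on a log axis, by age in vivo (blue) and day of culture (red), with CSF libraries open, bars at the mean and a dotted line at 1. The ratio of Prdm9 to Spo11 is above 1 at 6.5 dpp, 10.5 dpp and D4 and under 1 in all later libraries.

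The first comparison asks which of these genes change as the first germ cells enter meiosis. From 6.5 to 10.5 dpp 3 of 9 genes rose and none fell, Prdm9 by a log2 fold change of 1.86 ± 0.21 (standard error; edgeR, adjusted p = 0.000263), Meiob by 1.99 ± 0.41 (adjusted p = 0.0234) and Msh5 by 1.17 ± 0.22 (adjusted p = 0.0147). Among all genes tested 0.675% were higher and 0.467% lower. Over the set the median was 0.92, and over all genes -0.01. Spo11 had 0.95 ± 0.32 (adjusted p = 0.182) and Dmc1 0.92 ± 0.32 (adjusted p = 0.206). Of 31 other recombination genes 2 rose, Mei1, a break formation gene (1.41 ± 0.22, adjusted p = 0.0038), and Hfm1, a crossover helicase (1.22 ± 0.26, adjusted p = 0.0305), and none fell. At 6.5 dpp 3 of the 4 libraries were CSF and at 10.5 dpp all were fresh, so that freezing and age are in large part not separated here. With fresh libraries only none of the 9 passed (Prdm9 1.82, adjusted p = 0.0908). Within the fit of only these groups none did either (Prdm9 and Msh5 adjusted p = 0.0802 and Meiob 0.173), nor with fresh and CSF apart (Prdm9 0.232, Msh5 0.826 and Meiob 0.682). The Meiob call was lost without CSF replicate 1 or 2 or 10.5 dpp replicate 1 or 2 (adjusted p = 0.056 to 0.157), and that of Msh5 without CSF replicate 2 or 10.5 dpp replicate 2 (0.0571 and 0.137), while Prdm9 kept it without any single library. Without CSF replicate 3 Dmc1 passed (1.44, adjusted p = 0.00611), and without D30 fresh replicate 3 so did Spo11 (adjusted p = 0.0475).

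The next step spans pachytene, up to the stage of round spermatids. From 10.5 to 22.5 dpp 8 of 9 genes rose, where 33.6% of all genes tested were higher and 27.9% lower, and the median log2 fold change was 1.52 against 0.06 for all genes. Spo11 rose by 5.18 ± 0.39 (edgeR, adjusted p = 5.82e-09), which is 36.2-fold, Meiob by 4.06 ± 0.47 (adjusted p = 1.02e-06) and Msh4 by 3.28 ± 0.25 (adjusted p = 6.94e-09). Msh5 rose by 1.97 ± 0.25, Mlh3 by 1.52 ± 0.20, Rnf212 by 1.40 ± 0.27, Ccnb1ip1 by 1.28 ± 0.45 (adjusted p = 0.0213) and Dmc1 by 0.86 ± 0.35 (adjusted p = 0.0408). Prdm9 stayed at 0.16 ± 0.22 (adjusted p = 0.53), and with library size alone its value was -0.13. Over the same step the summed level of the spermatocyte markers Sycp1, Sycp3, Hspa2, Piwil1 and Ccna1 went from between 211 and 258 CPM to between 3174 and 3858 CPM, and that of 4 Sertoli cell markers from 1142 to 1218 down to 181 to 321 CPM. In bulk tissue fewer cells of a type and less RNA per cell cannot be told apart. Against the reads of Sycp1, a gene of the synaptonemal complex, Spo11 went from 3.39 to 3.99 up to 21.6 to 50.8 reads for each 100, Meiob from 4.67 to 5.77 up to 19.6 to 28.4, and Prdm9 from 18.5 to 20.9 down to 4.65 to 7.50, none of these overlapping. Over this step Sycp1 rose by a log2 fold change of 1.95 and Sycp3 by 1.99, but Hspa2 by 5.18, Ccna1 by 6.16 and Piwil1 by 7.57. Ratios to Sycp1, here and in later comparisons, hold for that marker only.

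The weakest of these calls rested on single libraries. That of Dmc1 was lost without 10.5 dpp replicate 1 or 3 or any 22.5 dpp replicate (adjusted p = 0.0548 to 0.111) and with library size alone (0.126). That of Ccnb1ip1 was lost without 10.5 dpp replicate 1 or 3 or 22.5 dpp replicate 1 (adjusted p = 0.0511 to 0.0655) and with library size alone (0.99, adjusted p = 0.0507). The other 6 genes kept their calls without any single library. Of the 31 other genes 16 rose and 7 fell over this step. In break formation the ends were Ankrd31 (1.89 ± 0.27) and Rec114 (-1.56 ± 0.30), and in strand exchange Mcmdc2 (3.64 ± 0.35) and Swsap1 (-0.53 ± 0.22, adjusted p = 0.041). In the crossover group they were Cntd1, a cyclin-like gene (5.64 ± 0.36), and Trip13, an ATPase (-1.07 ± 0.18), and in break placement Hells, a chromatin remodeler, fell by 1.14 on the log2 scale (adjusted p = 6.98e-05) while Zcwpw1, which reads the Prdm9 mark, had -0.19 ± 0.18 (adjusted p = 0.35).

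From 22.5 to 36.5 dpp, when spermatids come to fill the tubules, 4 of 9 genes fell and none rose, among 27.5% of all genes lower and 23.3% higher. Prdm9 fell by 2.10 ± 0.27 on the log2 scale (edgeR, adjusted p = 9.97e-06), Dmc1 by 1.15 ± 0.40 (adjusted p = 0.024), Msh5 by 0.94 ± 0.27 (adjusted p = 0.00856) and Mlh3 by 0.94 ± 0.22 (adjusted p = 0.00221). Spo11 had -0.61 ± 0.37 (adjusted p = 0.177), Meiob -0.92 ± 0.47 (0.112), Msh4 -0.28 ± 0.26 (0.367), Rnf212 -0.26 ± 0.29 (0.485) and Ccnb1ip1 -0.58 ± 0.51 (0.358). The set had a median of -0.92, all genes of -0.13. With library size alone 8 of the 9 were lower, all but Ccnb1ip1, but that scaling also lowered the median of all genes. The share of all genes lower with library size alone is not reported here, so the 8 cannot be read as particular to the set. The Dmc1 call was lost with RLE factors (adjusted p = 0.0636) and without 22.5 dpp replicate 2 or 36.5 dpp replicate 2 (0.0592 and 0.169), and that of Msh5 without 36.5 dpp replicate 1 (0.121). Prdm9 and Mlh3 kept their calls without any single library. Without 6.5 dpp CSF replicate 3 Meiob passed (adjusted p = 0.0343). Of the 31 other genes 19 fell and none rose, among them 5 of 6 in break formation and both in break placement (Hells -1.59 ± 0.23, Zcwpw1 -1.55 ± 0.21).

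In culture the first 4 days were compared with the testis at 6.5 dpp, the age at which the explants were taken. Of the 6.5 dpp libraries 3 of 4 were CSF, while all D4 libraries were fresh, so that freezing and culture are in large part not separated in this comparison. Here 6 of 9 genes rose and none fell, where 10.8% of all genes were higher and 10.1% lower. Meiob rose by 4.41 ± 0.43 (edgeR, adjusted p = 1.26e-06), which is 21.2-fold, Prdm9 by 2.64 ± 0.21 (adjusted p = 1.22e-07), Spo11 by 2.40 ± 0.32 (adjusted p = 3.18e-05), Msh5 by 2.20 ± 0.23, Msh4 by 1.93 ± 0.22 and Dmc1 by 1.89 ± 0.32 (adjusted p = 0.000443). The 3 others were Mlh3 at -0.03 ± 0.18, Rnf212 at 0.35 ± 0.24 and Ccnb1ip1 at -0.51 ± 0.42. The median of the set was 1.93 and that of all genes -0.03. With fresh libraries only, which leaves 1 library at 6.5 dpp, Spo11 had 1.99 (adjusted p = 0.0567). All 6 calls were kept when any single library was left out. With the left-out fresh library back in the 6.5 dpp group 2 of the 6 passed, and the value of Spo11 was -1.15 (adjusted p = 0.508). Of the 31 other genes 11 rose and 4 fell, led by Hfm1 (2.78 ± 0.27) and, in strand exchange, Spata22, the partner of Meiob (2.14 ± 0.42, adjusted p = 0.00146).

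Against the testis of the same age, 10.5 dpp, 5 of 9 genes were higher at D4 and none was lower, with 4.92% of all genes higher and 3.18% lower. The largest difference was that of Meiob, 2.41 ± 0.44 (edgeR, adjusted p = 0.00159), or 5.32-fold. Spo11 was higher by 1.45 ± 0.34 (adjusted p = 0.0105), Msh4 by 1.20 ± 0.23 (adjusted p = 0.00274), Msh5 by 1.03 ± 0.24 (adjusted p = 0.0109) and Prdm9 by 0.78 ± 0.22 (adjusted p = 0.0338), and in each of the 5 all D4 libraries lay above all 10.5 dpp libraries. Dmc1 also did not overlap between the groups but did not pass, with 0.97 ± 0.35 (adjusted p = 0.107), and passed without 6.5 dpp CSF replicate 3 (adjusted p = 0.0111). How many of all genes showed no overlap was not counted. Mlh3 had -0.18 ± 0.19, Rnf212 0.15 ± 0.26 and Ccnb1ip1 0.11 ± 0.45, which spans -0.79 to 1.01 at 2 standard errors. The median of the set was 0.97 and that of all genes -0.01. Of the 31 other genes 2 were higher, both crossover genes, Hfm1 (1.56 ± 0.29, adjusted p = 0.00181) and Cntd1 (1.09, adjusted p = 0.0374), with a median of -0.02.

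Spermatocyte markers moved with these genes, summing to between 321 and 374 CPM at D4 and between 211 and 258 CPM at 10.5 dpp, although none of the 5 passed on its own (Sycp1 0.65, adjusted p = 0.176). Their part in the result was not tested. For each 100 reads of Sycp1 there were 16.2 to 20.3 reads of Meiob at D4 and 4.67 to 5.77 at 10.5 dpp, 5.36 to 7.92 against 3.39 to 3.99 of Spo11, and 5.15 to 6.10 against 3.50 to 3.93 of Msh4, without overlap. The values of Prdm9, 18.5 to 25.9 against 18.5 to 20.9, and of Msh5, 11.7 to 20.6 against 10.3 to 12.6, overlapped. For each 100 reads of Ddx4, a germ cell marker, none of the 9 overlapped, so this separation is not particular to the 5. Among the genes that had not passed, Mlh3 had 18.6 to 21.4 reads at D4 against 15.9 to 17.2 at 10.5 dpp. Rnf212 had 3.12 to 3.45 against 1.99 to 2.34, and Ccnb1ip1 6.30 to 7.44 against 3.98 to 5.51. The share of all genes without overlap against Ddx4 was not counted. Prdm9 had 18.5 to 20.5 reads at D4 against 7.39 to 9.55 at 10.5 dpp, and Msh5 11.7 to 16.3 against 4.10 to 5.81. Ddx4 and Dazl, the other germ cell marker, summed to 693 to 906 CPM at D4 and 810 to 1043 CPM at 10.5 dpp. They differed in course, since from 10.5 to 22.5 dpp Ddx4 rose by a log2 fold change of 1.97 and Dazl had 0.08 (not called). The part of the reference gene in these ratios was not tested. The Spo11 call was lost without 10.5 dpp replicate 1 or 3 (adjusted p = 0.0533 and 0.059), that of Msh5 also without D4 replicate 3 (0.052 to 0.0667 over these 3), and that of Prdm9 without 10.5 dpp replicate 1 or 3 or any D4 replicate (0.0784 to 0.16) and with library size alone (0.0728). Meiob and Msh4 kept theirs without any single library, and without 10.5 dpp replicate 1 or replicate 3 they were the only 2 of the 9 that passed.

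From D4 to D16, the days that correspond to the step from 10.5 to 22.5 dpp, 3 of 9 genes rose and 1 fell, with 18.4% of all genes higher and 5.48% lower. Spo11 rose by 2.88 ± 0.37 (edgeR, adjusted p = 9.78e-06), or 7.36-fold, Msh4 by 1.08 ± 0.25 (adjusted p = 0.00372) and Mlh3 by 1.06 ± 0.21 (adjusted p = 0.00115). Prdm9 fell by 1.27 ± 0.25 on the log2 scale (adjusted p = 0.000991). Dmc1 had -0.93 ± 0.40 (adjusted p = 0.103), Msh5 -0.67 ± 0.27 (0.0829), Meiob 0.71 ± 0.45 (0.289), Ccnb1ip1 0.96 ± 0.49 (0.182) and Rnf212 0.20 ± 0.29 (0.662). In the set the median was 0.71 and that of all genes 0.03. Without D16 replicate 1, which leaves 1 library at D16, the calls of Prdm9 (adjusted p = 0.0546) and Msh4 (0.0751) were lost, and those of Spo11 and Mlh3 were kept without any single library. Dmc1 passed without 6.5 dpp CSF replicate 3 (adjusted p = 0.0135) and Msh5 without D30 fresh replicate 1 (0.0488), and in the fit of only these groups 7 of 9 passed, all but Meiob and Rnf212. Among the 31 other genes 6 rose and 4 fell, from Cntd1 (3.47 ± 0.34) and Psmc3ip, a strand exchange cofactor (2.08 ± 0.37), to Mei1 (-0.80 ± 0.27) and Tex11, an X-linked crossover gene (-0.74 ± 0.23).

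The difference between both steps was tested itself, as the change from D4 to D16 minus that from 10.5 to 22.5 dpp. It was below 0 for 6 of 9 genes, where 4.36% of all genes were lower and 5.26% higher (54.7% of the calls higher with TMM and 73.2% with library size alone). The differences were -3.36 ± 0.65 for Meiob (edgeR, adjusted p = 0.00469), -2.64 ± 0.37 for Msh5 (0.000409), -2.30 ± 0.50 for Spo11 (0.01), -2.20 ± 0.35 for Msh4 (0.00118), -1.79 ± 0.53 for Dmc1 (0.0412) and -1.44 ± 0.33 for Prdm9 (0.0132). Rnf212 had -1.20 ± 0.40 (adjusted p = 0.0643), Mlh3 -0.46 ± 0.29 (0.329) and Ccnb1ip1 -0.32 ± 0.67 (0.808). The median of the set was -1.79, that of the 31 other genes -0.49 and that of all genes -0.03, or 0.21 with library size alone. Of the other genes 4 were lower, among them Hfm1 (-2.75 ± 0.44) and Ankrd31 (-1.43 ± 0.40). Both ends of this contrast enter it, the higher level at D4 and the lower level at D16.

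Single libraries decided part of these differences, though not those of Meiob, Msh4 and Msh5. Spo11 lost the call without D16 replicate 2 (adjusted p = 0.075) and Prdm9 without D16 replicate 1 (0.0512). The Dmc1 call was lost without any library of 10.5 dpp, D4 or D16, or 22.5 dpp replicate 1 or 3 (adjusted p = 0.0549 to 0.187). Rnf212 passed without 6.5 dpp CSF replicate 3, 22.5 dpp replicate 2, or D30 fresh replicate 2 or 3 (adjusted p = 0.019 to 0.047).

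**Figure D3:**
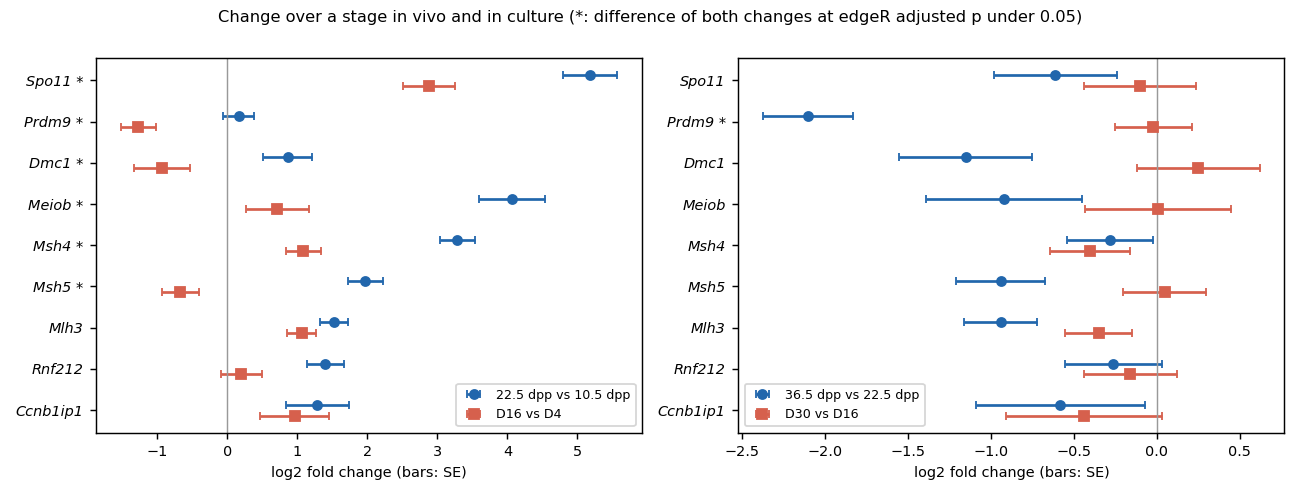
Log2 fold change with its standard error for each gene over the step from 10.5 to 22.5 dpp and from D4 to D16 (left), and from 22.5 to 36.5 dpp and from D16 to D30 (right), with an asterisk where the difference of both steps had an edgeR adjusted p under 0.05. In vivo Meiob changed by 4.06 over the first step and in culture by 0.71, and over the second step Prdm9 changed by -2.10 in vivo and by -0.02 in culture.

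At D16 the explants were compared with the 22.5 dpp testis. All 9 genes had a lower estimate, and 4 of 9 passed in edgeR, where 11.8% of all genes were lower and 14% higher. Msh5 was lower by 1.61 ± 0.28 on the log2 scale, or 3.06-fold (edgeR, adjusted p = 0.000714), with 13.7 and 16.4 CPM against 39.0 to 44.5 CPM. These 4 are crossover genes. Rnf212 had -1.05 ± 0.30 (adjusted p = 0.0187), Msh4 -1.0 ± 0.26 (0.0124) and Mlh3 -0.64 ± 0.22 (0.0411), and in all 4 both D16 libraries lay under all 22.5 dpp libraries. The break and strand exchange genes did not pass, with Prdm9 at -0.66 ± 0.25 (adjusted p = 0.058), Spo11 at -0.85 ± 0.37 (0.0978), Dmc1 at -0.82 ± 0.40 (0.131) and Meiob at -0.95 ± 0.47 (0.143), though the groups did not overlap in these either. The share of all genes without overlap was not counted. DESeq2 called Prdm9 (adjusted p = 0.00824) and Spo11 (0.0462) lower as well, and Prdm9 passed in edgeR with RLE factors, another filter, fresh libraries only and the replicate block (0.0284 to 0.0484). Ccnb1ip1, the fifth crossover gene, had -0.21 ± 0.50 (adjusted p = 0.777) and overlapped. Whether crossover genes differed more than the others was not tested. The set had a median of -0.85, against -0.08 for all genes.

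The sum of the spermatocyte markers was lower at D16, as these genes were, and that of the Sertoli cell markers was higher. Their part in the result was not tested. Spermatocyte markers summed to 1282 and 2027 CPM at D16 against 3174 to 3858 CPM at 22.5 dpp, and Sertoli cell markers to 484 and 800 CPM against 181 to 321 CPM. For each 100 reads of Sycp1 there were 6.11 and 6.95 reads of Msh5 at D16 against 9.44 to 16.6 at 22.5 dpp, and 7.31 and 8.48 of Msh4 against 8.61 to 11.3, still without overlap. Against Ddx4 Msh5 stayed apart (2.59 and 3.20 against 4.11 to 5.33) and Msh4 overlapped (3.10 and 3.91 against 3.08 to 5.00). Mlh3 (28.1 and 36.9 against 21.9 to 38.2) and Rnf212 (2.68 and 3.16 against 2.43 to 5.33) overlapped when set against Sycp1. Msh5 kept its call without any single library. Without D16 replicate 2 only Msh5 passed (Msh4 adjusted p = 0.16, Rnf212 0.189, Mlh3 0.256), and Rnf212 was also lost without 22.5 dpp replicate 1 or 3 (0.0607 and 0.0586). Mlh3 was lost with library size alone (0.102) and without any 10.5 dpp library, 22.5 dpp replicate 1 or 3, D4 replicate 2 or either D16 library (adjusted p = 0.0519 to 0.256). Without 6.5 dpp CSF replicate 3, 7 of 9 passed, with Prdm9 (0.0454), Dmc1 (0.0252) and Meiob (0.0477) added, Prdm9 passed without CSF replicate 1 too (0.0452), and Spo11 passed without D30 fresh replicate 3 (0.0261).

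Of the 31 other recombination genes 9 passed as lower at D16 and none as higher. In break formation the lowest and highest were Ankrd31 (-1.20 ± 0.30, edgeR adjusted p = 0.0101) and Rec114 (0.70 ± 0.33, adjusted p = 0.123), in strand exchange Psmc3ip (-1.17 ± 0.39, adjusted p = 0.0353) and Swsap1 (0.08 ± 0.24), and in the crossover group Hfm1 (-1.19 ± 0.32, adjusted p = 0.0147) and Trip13 (0.23 ± 0.20). The break placement genes Zcwpw1 and Hells had -0.33 ± 0.20 and 0.12 ± 0.21.

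From D16 to D30 none of the 9 genes passed in edgeR, none had an unadjusted p under 0.05, and none passed in DESeq2, with 1.46% of all genes higher and 0.332% lower. Estimates ran from -0.44 ± 0.47 for Ccnb1ip1 to 0.25 ± 0.37 for Dmc1, with Prdm9 at -0.02 ± 0.23 and Msh5 at 0.05 ± 0.25. At 2 standard errors the value of Prdm9 spans -0.48 to 0.45. The median was -0.10, against 0.01 for all genes, and none of the 31 other genes passed, of which 5 had an unadjusted p under 0.05. Against the change from 22.5 to 36.5 dpp, that from D16 to D30 differed for 1 of 9 genes, Prdm9, by 2.09 ± 0.35 (edgeR, adjusted p = 0.000769), with 11.5% of all genes higher and 8.63% lower (57% of the calls higher with TMM, 82.1% with library size alone and 43.2% with RLE). Dmc1 had 1.40 ± 0.55 (adjusted p = 0.0769) and Msh5 0.99 ± 0.37 (0.0668), and the median of the set was 0.59 against 0.11 for all genes, which library size alone moved to 0.59 and RLE to -0.05. Dmc1 passed without 6.5 dpp CSF replicate 3 or D30 fresh replicate 3 (adjusted p = 0.0105 and 0.0412) and Msh5 without 36.5 dpp replicate 2, D30 fresh replicate 3 or D30 CSF replicate 1 (0.0319 to 0.0493). Among the 31 other genes 5 were higher, including Hells (1.18 ± 0.30), Zcwpw1 (1.06 ± 0.28) and Tex11 (1.09 ± 0.31).

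At D30 the explants were compared with the 36.5 dpp testis. Prdm9 was higher by 1.43 ± 0.25 (edgeR, adjusted p = 9.98e-05), with 11.7 to 15.4 CPM against 2.82 and 3.73 CPM. Msh4 was lower by 1.11 ± 0.23 on the log2 scale (adjusted p = 0.000494), Rnf212 by 0.96 ± 0.27 (0.00476) and Msh5 by 0.62 ± 0.25 (0.0337), which makes 1 of 9 higher and 3 of 9 lower where 32.4% of all genes were higher and 35% lower. These shares of the set are not above those of all genes. Spo11 had -0.34 ± 0.34 (adjusted p = 0.379), Dmc1 0.58 ± 0.38 (0.181), Meiob -0.01 ± 0.44 (0.981), Mlh3 -0.05 ± 0.20 (0.831) and Ccnb1ip1 -0.07 ± 0.48 (0.896). The median of the set was -0.07 and that of all genes -0.03. In CPM the Msh4 groups did not overlap (9.12 to 16.7 against 18.9 and 18.9), and those of Msh5 and Rnf212 did.

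In this comparison library size alone moved the median of all genes more than in any other. With library size alone, where that median was 0.60, Prdm9 was still higher and Dmc1 (1.20, adjusted p = 0.0064) and Mlh3 (0.58, adjusted p = 0.0173) passed as higher, while Msh4 (-0.48, adjusted p = 0.0747), Rnf212 (-0.33, 0.253) and Msh5 (0.01, 0.986) did not pass. Relative to that median Msh4, Rnf212 and Msh5 stayed lower and Mlh3 did not differ by over 0.1. The Msh5 call was also lost without 36.5 dpp replicate 2, D30 fresh replicate 3 or D30 CSF replicate 1 (adjusted p = 0.0873 to 0.343), that of Rnf212 without 36.5 dpp replicate 2 (0.0559), and Dmc1 passed without 6.5 dpp CSF replicate 3 (0.0471). Msh4 kept its call without any single library, and Prdm9 kept an adjusted p under 0.05 in all alternatives run. Spermatid markers summed to 267 to 1312 CPM at D30 and 13875 to 17388 CPM at 36.5 dpp, and Sertoli cell markers to 475 to 771 against 59.8 to 72.3 CPM, and their part in the result was not tested. For each 100 reads of Sycp1 there were 6.06 to 11.2 reads of Prdm9 at D30 and 1.78 to 3.00 at 36.5 dpp, and 7.33 to 8.73 of Msh4 against 11.9 to 15.2, both without overlap. Against Ddx4 Prdm9 stayed apart (2.50 to 4.49 against 0.473 to 0.645) and Msh4 overlapped (2.89 to 3.49 against 3.16 and 3.26).

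Of the other recombination genes 8 of 31 were higher at D30 and 7 lower, also not above the 32.4% and 35% of all genes. Both break placement genes were higher, Hells by 1.31 ± 0.22 (edgeR, adjusted p = 5.19e-05) and Zcwpw1 by 0.73 ± 0.19 (adjusted p = 0.00298). In break formation they ranged from Ankrd31 (-0.69 ± 0.27) to Mei4 (1.71 ± 0.52) and in the crossover group from Cntd1 (-1.22 ± 0.30) to Exo1, a nuclease (1.15 ± 0.14). In strand exchange the lowest was Psmc3ip (-1.79 ± 0.34). The strand exchange genes counted 3 lower and none higher of 11, and the crossover genes 4 higher and 3 lower of 12.

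**Figure D4:**
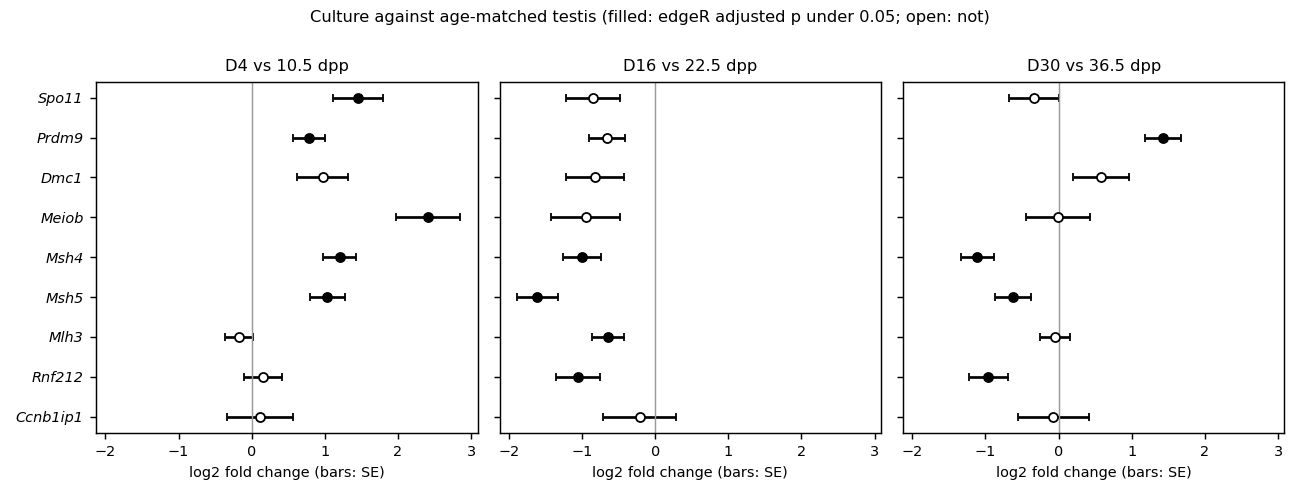
Log2 fold change of the 9 genes in culture against the testis of the same age, with bars of 1 standard error, at D4, D16 and D30, filled where the edgeR adjusted p was under 0.05. At D4 Meiob is at 2.41 and Spo11 at 1.45, at D16 Msh5 is at -1.61, and at D30 Prdm9 is at 1.43 and Msh4 at -1.11.

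**Figure D5:**
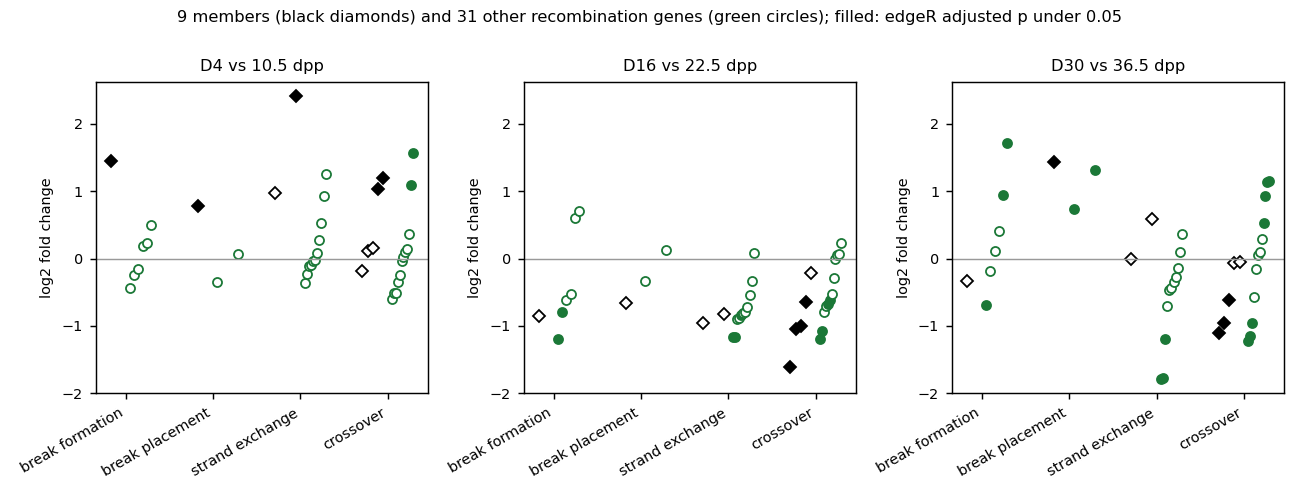
Log2 fold change in culture against the testis of the same age for the 9 genes (black diamonds) and 31 other recombination genes (green circles), by role, filled where the edgeR adjusted p was under 0.05. At D4, 5 of the 9 and 2 of the 31 are called, all higher, and at D16 4 of the 9 and 9 of the 31, all lower.

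Each of the 3 comparisons with the testis of the same age has its own libraries, so the values of a gene can be set side by side. Meiob had 2.41, -0.95 and -0.01 at D4, D16 and D30, Prdm9 0.78, -0.66 and 1.43, Msh4 1.20, -1.0 and -1.11, and Msh5 1.03, -1.61 and -0.62. Rnf212 had 0.15, -1.05 and -0.96, and Ccnb1ip1 0.11, -0.21 and -0.07, the only gene of the set that passed in none of the 3 apart from Dmc1 (0.97, -0.82 and 0.58).

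Over the 21 libraries the genes outside the set with the most similar course, by Pearson correlation of log2 CPM, were Brd8dc (0.992) and Dmrtc2 (0.990) for Spo11, Nrcam (0.965) and Bhmg1 (0.960) for Prdm9, and Fmr1nb and Gm364 (both 0.918) for Dmc1. For Meiob they were Hfm1 (0.974) and Terb1 (0.964), for Msh4 Tesmin (0.978) and Sycp2 (0.976), and for Msh5 Acss2 (0.955) and Inca1 (0.946). Those of Mlh3 were Exd2 (0.986) and Ccdc14 (0.959), those of Rnf212 Strbp (0.918) and Dhx40 (0.902), and those of Ccnb1ip1 Orc5 (0.943) and Tex30 (0.936). Within the set Spo11 and Msh4 were most alike (0.963), Prdm9 and Dmc1 each had the other as nearest (0.833), and Ccnb1ip1 was least like the rest, with 0.476 to Rnf212 as its nearest. The libraries share stages, so these values describe the order of stages and are not tests.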

How the data were processed

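RNA was sequenced from testes and cultured explants as single reads of 50 bases, and the authors, per the labels, aligned them to GRCm38 with STAR 2.7.3a and, by the intersection-nonempty rule of HTSeq 0.12.4, counted them on genes. The deposited table gives raw read counts for each gene and was not normalized. The strand setting of HTSeq is not given in the sources used here. Groups and replicate numbers came from the sample labels. Of 23 columns, 2 were left out by the rule, 1 that resembles the cultured libraries and 1 identical to another, and 21 libraries in 7 groups (CSF with fresh) were fitted.

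From the counts, CPM were computed on the library total, and CPM per kb on merged exons of the gene of that name in GENCODE M21 (GRCm38). Groups were compared with TMM factors, filterByExpr and the quasi-likelihood F test of edgeR 4.0.16 (R 4.3.3), with Benjamini-Hochberg adjustment over 19255 genes and calls at an adjusted p under 0.05. A standard error is the absolute log2 fold change divided by the square root of F. Both differences of steps were contrasts in the same fit. Alternatives were RLE factors, library size alone, other filters, DESeq2 1.42.0, a stricter threshold, the left-out library kept, fresh libraries only, 9 groups, only the groups compared, the replicate number as a block, and each library left out in turn. In a contrast with 1 library left in a group, that library is assumed to vary like the other groups.

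The members and gene lists were chosen with earlier results of these data known. The rule for named genes was the 9 members, the lowest and highest fold change of each role among 31 other recombination genes (2 matched by synonym), and for each member the 2 most correlated genes. Several of these ends are not reported here, and where a comparison names fewer, its genes were picked among them or the called ones after their values were seen. Spo16 and Hbb-bs were not analysed here. The test was checked on simulated data with 200 genes changed 4-fold. For D4 against 10.5 dpp edgeR recovered 68.5% of them, for D16 against 22.5 dpp 73% and for D30 against 36.5 dpp 64.5%. It called 5, 6 and 5 unchanged genes. A gene that did not pass can thus still differ. Molecular identifiers are not mentioned in the sources used here, so reads can be copies of 1 molecule. Plots were drawn with matplotlib 3.10.9.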

Additional observations from a re-analysis of the deposited data

Results flagged for a closer look

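Among the groups of 4 libraries (6.5 dpp and D30), 4 of 18 sets of values held a library farther from the others than Dixon's 95% limit. Chance gives this in about 1 of 20 independent sets, but these sets share the same libraries, so their count cannot be set against it. At 6.5 dpp the CSF replicate 3 had 31.1 CPM of Dmc1 against 12.0 to 14.0 CPM in the other 3 libraries, 2.72 CPM of Meiob against 0.856 to 0.997 CPM, and 34.1 CPM of Ccnb1ip1 against 11.1 to 15.0 CPM. At D30 the fresh replicate 3 had 22.4 CPM of Dmc1 against 42.6 to 44.3 CPM.

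The change from D4 to D16 differed from that between 10.5 and 22.5 dpp by -2.30 for Spo11, -1.44 for Prdm9, -1.79 for Dmc1, -3.36 for Meiob, -2.20 for Msh4 and -2.64 for Msh5 on the log2 scale, each past the edgeR test of the difference. The change from D16 to D30 differed from that between 22.5 and 36.5 dpp by 2.09 for Prdm9.

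The library labelled 6.5 dpp fresh replicate 1, which entered no comparison, exceeded all other 6.5 dpp libraries in 8 of 9 genes. It had 95.0 CPM of Spo11 (1.48 to 2.69 CPM in the others), 16.2 of Prdm9 (4.50 to 7.80), 31.8 of Dmc1 (12.0 to 31.1), 55.6 of Meiob (0.856 to 2.72), 20.0 of Msh4 (2.09 to 2.77), 21.8 of Msh5 (5.34 to 5.6), 91.4 of Mlh3 (29.8 to 44.4) and 8.17 of Rnf212 (4.10 to 5.41). Its ratio of Prdm9 to Spo11 per kb was 0.155, and its spermatocyte markers summed to 2274 CPM, where the other 6.5 dpp libraries had 150 to 193 CPM.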

How the results depend on the processing

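Of 3069 values of single genes under the alternatives, 2829 kept their direction and their side of the threshold, 117 lost significance, 48 gained it and 75 changed sign. Over the 11 comparisons 45 of 99 tests passed, 45 with RLE factors (44 of them shared), 48 with library size alone (38 shared) and 49 with DESeq2 (45 shared). With the library labelled 6.5 dpp fresh replicate 1 in the fit 0 of the 9 genes passed for 10.5 against 6.5 dpp, D16 against D4, D4 against 10.5 dpp, D16 against 22.5 dpp and the difference of the first step, 1 for 36.5 against 22.5 dpp, and 2 each for D4 against 6.5 dpp and D30 against 36.5 dpp. The 10.5 against 6.5 dpp values then changed sign for Spo11 (-2.61), Meiob (-1.34), Msh4 (-0.72), Mlh3 (-0.28) and Rnf212 (-0.05), and D4 against 6.5 dpp for Spo11 (-1.15). With fresh libraries only, with fresh and CSF as 9 groups and with only the groups compared 0 passed for 10.5 against 6.5 dpp. In the last of these 7 passed for D16 against D4, 1 for D16 against 22.5 dpp and 2 for D30 against 36.5 dpp. Library size alone gave 8 for 36.5 against 22.5 dpp and 4 for the difference of the second step, for which fresh libraries only gave 2. The shares of all genes tested that passed under these settings are not reported here. At a log2 fold change past 2 in size with an adjusted p up to 0.001 there were 3 for 22.5 against 10.5 dpp, 1 each for 36.5 against 22.5 dpp, D16 against D4 and the difference of the first step, and 0 for 10.5 against 6.5 dpp and for D4, D16 and D30 against the testis of their age. The cause of these changes was not tested.

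Leaving out 1 library gave 1 to 4 genes for 10.5 against 6.5 dpp, 6 to 8 for 22.5 against 10.5 dpp, 3 to 5 for 36.5 against 22.5 dpp, 6 for D4 against 6.5 dpp, 2 to 5 for D16 against D4, 0 for D30 against D16, 2 to 6 for D4 against 10.5 dpp, 1 to 7 for D16 against 22.5 dpp, 2 to 5 for D30 against 36.5 dpp, and 4 to 7 and 1 to 3 for the differences of the first and second step. With the replicate number as a replicate block 43 of 99 tests passed, 42 of them shared with the 45. It ended the calls of Dmc1 for 22.5 against 10.5 dpp (adjusted p = 0.0522) and in the difference of the first step (0.0595) and of Msh5 for D30 against 36.5 dpp (0.0569), and added Prdm9 for D16 against 22.5 dpp (0.0476). Deviations from the group means correlated by over 0.1 in 15 of 52 pairs of libraries with the same number and in 23 of 102 with different numbers, so the numbers were not taken to pair the libraries.

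The other changes of sign concerned genes that had not passed, apart from Msh5 at D30. Library size alone turned Prdm9 for 22.5 against 10.5 dpp (-0.13), and for D30 against 36.5 dpp Spo11 (0.27), Meiob (0.61), Mlh3 (0.58), Ccnb1ip1 (0.55) and the called Msh5 (0.01). In that comparison Meiob also had 0.02 without a filter, 0.06 with fresh libraries only or 9 groups, and 0.09 with only the groups compared. Mlh3 had 0.06 in those 3 fits and 0.00 with the replicate block, and Ccnb1ip1 0.04 with only the groups compared. With 1 library left out the 3 genes ran from -0.25 to 0.21, from -0.18 to 0.06 and from -0.56 to 0.60. With fresh libraries only or 9 groups Ccnb1ip1 had 0.09 for 10.5 against 6.5 dpp and 0.20 for D4 against 6.5 dpp, and Mlh3 0.02 for the latter, where 1 library left out gave -0.70 to 0.08 and -0.10 to 0.06. For D30 against D16 Prdm9 had 0.02 with RLE factors or DESeq2 and 0.04 with the replicate block, and Meiob -0.03 with library size alone and -0.00 with only the groups compared. With 1 library left out values there ran from -0.32 to 0.37 for Prdm9, from -0.39 to 0.56 for Meiob, from -0.36 to 0.19 for Spo11, from -0.17 to 0.21 for Msh5 and from -0.37 to 0.05 for Rnf212. Ccnb1ip1 then ran from -0.63 to 0.12 for D16 against 22.5 dpp and from -0.74 to 0.01 in the difference of the first step. In that of the second step Msh4 had 0.37 with library size alone and 0.01 with the replicate block (-0.25 to 0.05 with 1 library left out). Rnf212 had -0.07 there with RLE factors or DESeq2 and -0.00 with only the groups compared (-0.12 to 0.30), and Ccnb1ip1 -0.03 with RLE factors or DESeq2, -0.08 with fresh libraries only and -0.07 with 9 groups (-0.34 to 0.82).

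Groups of 2 libraries at 36.5 dpp and D16 limit the precision there, and counting error weighs most where a gene had few reads. The lowest level, that of Meiob in the fresh library at 6.5 dpp, was 0.856 CPM, from 41 reads.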

Other observations

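At D30 the single library from frozen tissue lay inside the range of the 3 fresh libraries in 8 of 9 genes, for example with 54.3 CPM of Spo11 (29.1 to 95.2 CPM in the fresh libraries), 13.8 CPM of Prdm9 (11.7 to 15.4) and 12.5 CPM of Msh4 (9.12 to 16.7). Ccnb1ip1 lay above it, with 25.0 CPM against 8.36 to 22.1 CPM. With 1 CSF library no test was made.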
